A study of Mus musculus with 18 samples.

Results

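The 10 genes described here encode proteins that fold newly made polypeptides in the endoplasmic reticulum (ER): Hspa5, Hsp90b1, Creld2, Calr, Canx, Pdia3, Pdia4, Pdia6, P4hb and Ppib. They were chosen by symbol from the 35655 genes of the count table, for their place in the pathway, and the rule uses no measured value. Earlier results of these data were known when they were chosen. All 10 were found and all 10 passed the filter on low counts, which kept 10312 genes. RNA came from sections of mouse carotid artery, holding the outer elastic lamina and neointima, cut out by laser. It was sequenced from the 3′ ends of transcripts (MACE-seq). All mice were WT, strain C57/BL6, and the study operated on adult males. The groups were pre-injury arteries (day 0, 4 libraries) and arteries 7 days (4 libraries), 14 days (3), 21 days (4) and 28 days (3) after wire injury, in the deep form that also breaks the inner elastic lamina. The study describes its neointima samples as pooled, each collected from many sections, and the labels do not say how many animals stand behind a library, so the p-values measure the spread between these libraries.

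Proteins destined for secretion or for membranes enter the ER unfolded. Hsp70 and Hsp90 chaperones bind their exposed hydrophobic stretches, the lectins calnexin and calreticulin hold those that carry sugar chains, protein disulphide isomerases form and shuffle their disulphide bonds, and prolyl isomerases turn their proline bonds. Collagens depend heavily on this machinery, and smooth muscle cells and fibroblasts secrete much collagen in an injured artery. When unfolded proteins accumulate, the sensors Atf6, Ern1 and Eif2ak3 start the unfolded protein response, and Atf6 and Xbp1 raise transcription of chaperone genes through the ER stress response element (ERSE).

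The ERSE was searched for on both strands of the RefSeq promoter windows, which run from 250 bases before to 50 bases after each gene's start (table build GRCm38.p6). All 10 genes had a window. The letters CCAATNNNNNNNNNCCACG, or their reverse complement, stood in 6 of the 10 genes, against 39 of all 32851 windows (0.1187%). The 39 include the windows of these 6 genes. Since the element is known from chaperone genes, as described above, this contrast is a description and not a test. The elements are shown because the windows of the other 4 genes lacked these letters, so that the values of both kinds of gene can be compared. Each line gives 5 bases on either side, on the gene's strand, with the element in capitals.
Hspa5, GRCm39 chr2:34662032-34662060, plus strand: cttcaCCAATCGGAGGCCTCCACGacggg
Hsp90b1, first element, GRCm39 chr10:86541497-86541525, minus strand: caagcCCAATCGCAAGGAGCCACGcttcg
Hsp90b1, second element, GRCm39 chr10:86541392-86541420, minus strand: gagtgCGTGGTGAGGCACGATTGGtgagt
Calr, GRCm39 chr8:85573699-85573727, minus strand: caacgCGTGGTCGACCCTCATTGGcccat
Canx, GRCm39 chr11:50216622-50216650, minus strand: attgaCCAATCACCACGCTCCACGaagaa
Pdia6, GRCm39 chr12:17316487-17316515, plus strand: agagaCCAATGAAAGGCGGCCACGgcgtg
Creld2, GRCm39 chr15:88703718-88703746, plus strand: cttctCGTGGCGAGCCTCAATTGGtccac

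The element of Hspa5 began 65 bases before the RefSeq start, that of Pdia6 98 bases, that of Creld2 126 bases, that of Canx 145 bases and that of Calr 162 bases before it. Hsp90b1 held a pair, beginning 212 and 107 bases before the RefSeq start on opposite strands. The GENCODE genes start at base 34661982 for Hspa5 and at base 86541446 for Hsp90b1. By these starts, the Hspa5 element and the second Hsp90b1 element lay inside the gene. The windows of Pdia3, Pdia4, P4hb and Ppib did not hold these letters. That of P4hb (GRCm39 chr11:120464030-120464329) lay wholly inside the GENCODE gene, which starts at base 120464538 on the minus strand. That of Pdia3 began at chr2 base 121244133, just before the GENCODE start at 121244149. Bases before these GENCODE starts were thus not searched for P4hb and hardly searched for Pdia3. None of the 10 windows held ERSE-II (ATTGGNCCACG, in 0.03653% of all windows), the UPRE core (TGACGTGG, in 0.6758%) or the CRE (TGACGTCA, in 1.79%). A match to letters is a description of the window, and no binding was measured.

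**Figure D1:**
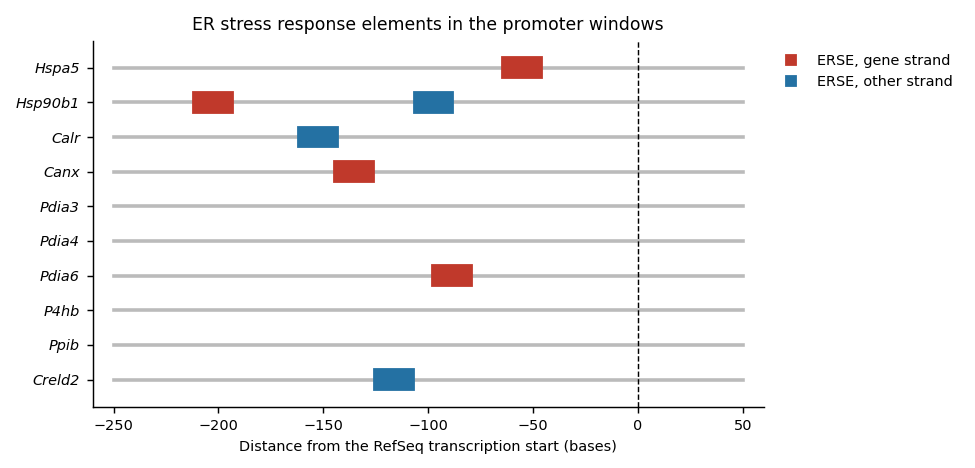
Position of the ERSE letters in the promoter windows of the 10 genes, in bases from the RefSeq transcription start (dashed line), with gene-strand matches in red and matches on the other strand in blue. Matches lie before the start in 6 genes, Hsp90b1 has a pair, and Pdia3, Pdia4, P4hb and Ppib have none.

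Library totals ranged from 440675 to 878310 counts, and the 10 genes took 0.314% to 0.662% of a library's counts. The lowest count of any of them in a library was 8, for Creld2. Levels are given as CPM, which are counts scaled to a common effective library total, and values in a sentence follow the replicate numbers. Statements that groups do not overlap describe the libraries only, since the share of all genes without overlap was not computed. One library stood apart: replicate 1 of day 28 was the highest of the day 28 libraries for 10 of 10 of these genes, against 36.4% of all genes tested, so day 28 values were also computed without it. Contractile smooth muscle markers such as Acta2 and Myh11 were present in every group. Their summed level ran from 35153 to 40202 CPM on day 0 and from 1729 to 7476 CPM on day 7.

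Of the 10 genes, Pdia6 alone passed edgeR's test with all libraries kept, and on day 7 this count was near the share of all genes given below. Hsp90b1, P4hb and Pdia3 passed on day 7 only under some alternatives. Pdia6 rose 2.32-fold on day 7 and was again lower on day 28. Hspa5, a widely used marker of ER stress, showed no detectable change on any day when all libraries were kept. Without replicate 1 of day 28, Hspa5 was lower on that day, as described after the day 28 values. A gene was called when its adjusted p from edgeR's quasi-likelihood test, corrected over all 10312 genes, was under 0.05. On day 7 against day 0, 1 of the 10 was higher and 0 were lower, beside 11.3% of all genes higher and 8.53% lower. DESeq2 called 2 of the 10, and 3 had an unadjusted p under 0.05. Over all 5 days together, 1 of the 10 differed, again Pdia6 (adjusted p = 0.0094), beside 18% of all genes, and DESeq2 called 2.

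**Figure D2:**
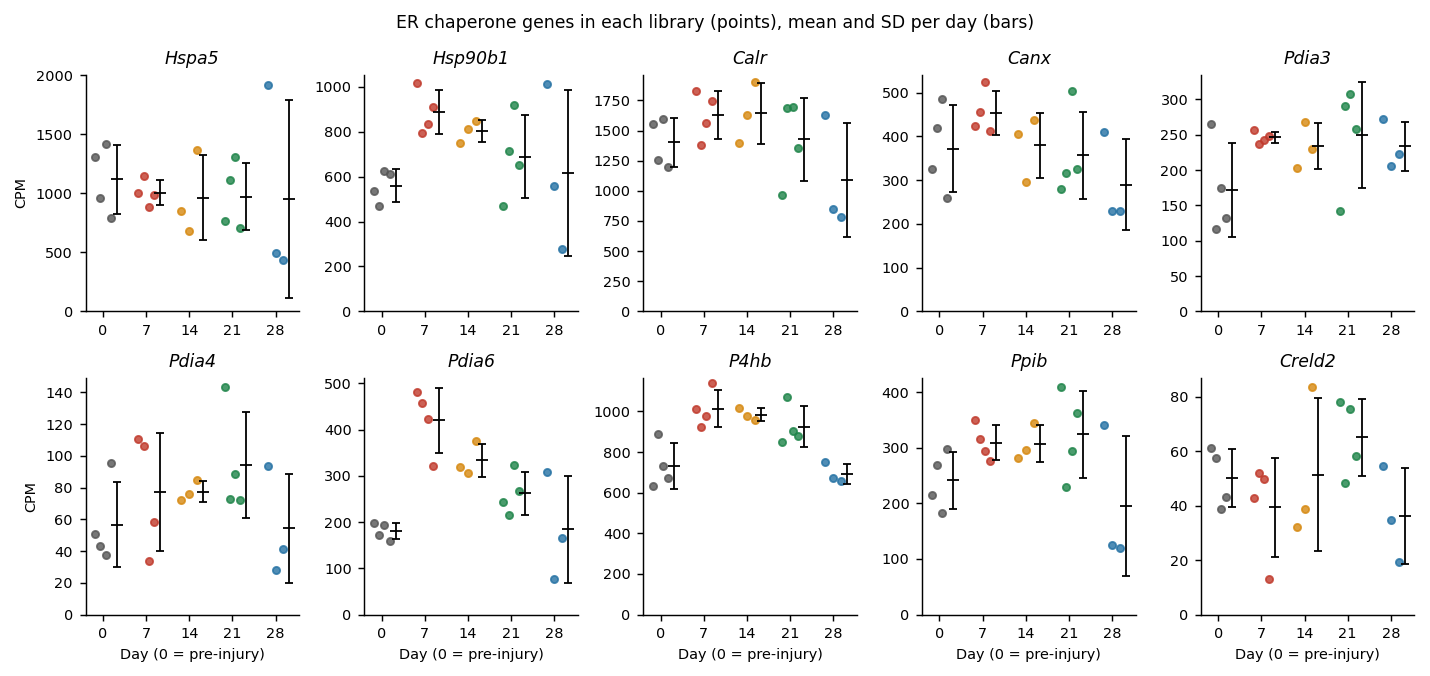
CPM of each gene in each library (points) by day after injury, with the mean and SD of each day as bars. Pdia6 on day 7 (321 to 481 CPM) lies above every day 0 library (160.1 to 198 CPM), and replicate 1 is the highest of the day 28 points in every panel.

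Pdia6 (P5), a disulphide isomerase that also acts on the stress sensors, held 198, 172, 194 and 160.1 CPM on day 0. On day 7 its level was 481, 458, 423 and 321 CPM. Every day 7 library lay above every day 0 library, a log2 fold change of 1.22 ± 0.28 (SE; adjusted p = 0.00294). The call held under all 26 alternatives, with adjusted p-values from 0.000144 to 0.0154. Day 14 gave 319.9, 307 and 374 CPM, also above day 0 without overlap, at a log2 fold change of 0.88 ± 0.30 that did not pass (adjusted p = 0.0889), though it passed with DESeq2, without the count filter, with only the days compared, and without replicate 1 or replicate 2 of day 28. Day 21 gave 242, 216, 324 and 268 CPM, likewise above day 0, with a log2 fold change of 0.54 (adjusted p = 0.279). Day 28 gave 309, 77.7 and 166 CPM, which overlapped day 0. The day 28 libraries lay below all those of day 7, and the log2 fold change between these days was -1.19 ± 0.31 (adjusted p = 0.0118). This call was lost without replicate 2 or replicate 3 of day 28 and with only the days compared, with adjusted p-values from 0.000767 to 0.0792 over the alternatives. Pdia6 lies at GRCm39 chromosome 12, bases 17316533 to 17335913, on the plus strand, and its exons overlap those of Atp6v1c2 on the other strand, which held 0 counts in every library.

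Hspa5 (BiP), the Hsp70 of the ER, held 1307, 958, 1414 and 789 CPM on day 0. On day 7 it held 1004, 1143, 885 and 985 CPM. These groups overlapped, and the log2 fold change was -0.15 with a 95% confidence interval from -0.86 to 0.56. Levels were 846, 681 and 1363 CPM on day 14, and 765, 1114, 1304 and 703 CPM on day 21. On day 28 they were 1914, 493 and 438 CPM, so that replicate 1 was the highest of all 18 libraries and the other two were the lowest. The intervals for days 14, 21 and 28 against day 0 also spanned 0. Exons of Hspa5 overlap those of Rabepk on the other strand, which held at most 26 counts in a library. The sources used here do not say whether the counting used strand. Hsp90b1 also shares exon bases on its own strand with the gene models Gm15344 and Gm54730, which have no row in the table, and the opposite-strand genes overlapping Pdia3 and Ppib held at most 4 counts in a library.

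Hsp90b1 (Grp94), the Hsp90 of the ER, held 535, 467, 628 and 610.2 CPM on day 0. On day 7 the levels were 1017, 796, 833 and 912 CPM. The groups did not overlap, and the log2 fold change of 0.67 ± 0.27 did not pass (adjusted p = 0.092). It passed with only the days compared and without replicate 1 or replicate 3 of day 28. Day 14, at 752, 812 and 849 CPM, also lay wholly above day 0, with a log2 fold change of 0.52 (adjusted p = 0.404). Days 21 and 28 overlapped day 0, at 689.9 ± 187 and 616 ± 370.5 CPM (SD). Creld2, an ER protein known to be induced by ER stress, had the lowest counts. Its means were 50.1 ± 10.8, 39.4 ± 18.1, 51.4 ± 28.0, 65.1 ± 14.2 and 36.2 ± 17.7 CPM from day 0 to day 28 (SD), all overlapping day 0, and its interval on day 7 ran from -1.23 to 0.52 on the log2 scale.

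The lectin chaperones showed smaller differences. Calr (calreticulin), the soluble one, held 1401 ± 203 CPM on day 0 and 1631 ± 199.6 CPM on day 7 (SD), and Canx (calnexin), its membrane-bound counterpart, had means of 372 and 454 CPM. For both the groups overlapped and the intervals of the log2 fold change spanned 0, from -0.26 to 0.70 for Calr and from -0.23 to 0.81 for Canx. On day 28 Canx held 409, 228 and 230.1 CPM, below each of the 424, 455, 524 and 413 CPM of day 7. Its log2 fold change between those days was -0.65 ± 0.28 and did not pass (adjusted p = 0.123).

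Among the other disulphide isomerases, P4hb, the archetypal enzyme and also a subunit of collagen prolyl 4-hydroxylase, held 631, 887, 732 and 675 CPM on day 0. It held 1013, 922, 979 and 1139.8 CPM on day 7, and 1019, 976 and 956 CPM on day 14. Both later groups lay above day 0 without overlap. The log2 fold change was 0.47 ± 0.18 for the first of them (adjusted p = 0.0681). For day 14 it was 0.43 ± 0.19 (adjusted p = 0.238). The day 7 difference passed with DESeq2, with RLE factors, with library totals and with the deposited normalised values, in which the factors applied to P4hb departed by up to 11% from the median factor of their library. On day 28 P4hb held 749.7, 673 and 658 CPM, below every library of days 7 and 21 and in the range of day 0. Pdia3 (ERp57), which works with the lectins, held 265, 116, 174 and 133 CPM on day 0 and 256, 237, 243 and 249 CPM on day 7. The day 0 replicate at 265 CPM made the groups overlap, and the difference of 0.52 ± 0.27 passed only in the alternative without that library (adjusted p = 0.194 with it, 0.0352 without). Pdia4 (ERp72) averaged 56.7 ± 26.6 CPM on day 0 and 94.2 ± 33.5 CPM on day 21 (SD), its highest mean, with a log2 fold change of 0.74 and an interval from -0.08 to 1.57.

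Ppib (cyclophilin B), a prolyl isomerase that acts on collagen, held 216, 269, 183 and 298 CPM on day 0. Its level was 351, 316, 295 and 276 CPM on day 7, overlapping day 0, with a log2 fold change of 0.36 (adjusted p = 0.445). On day 28 it held 340.4, 126 and 119.8 CPM, 1 library at the level of day 7 and the other two below every library of day 0.

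Against day 0, the median log2 fold changes of the 10 genes at days 7, 14, 21 and 28 were 0.40, 0.39, 0.36 and -0.16, where the medians of all genes tested were 0.07, 0.05, 0.07 and -0.01. Of the 10 values, 8, 9, 8 and 3 were above 0 in the same order. On day 14, 0 of the 10 were called, with 2 at an unadjusted p under 0.05 and 1 called by DESeq2, beside 4.8% of all genes higher and 1.42% lower. On day 21, 0 were called by edgeR or DESeq2 and 0 had an unadjusted p under 0.05, beside 5.92% of all genes higher and 2.93% lower. On day 28, 0 were called by either tool and 0 had an unadjusted p under 0.05, beside 0.97% higher and 0.369% lower. The summed levels of the 10 genes were 4882 ± 539, 6085 ± 321, 5777 ± 734, 5365 ± 912 and 4341 ± 2125 CPM (SD) from the earliest day to the latest. Day 7 sums (5833 to 6528 CPM) lay above all those of day 0 (4259.7 to 5481 CPM).

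**Figure D3:**
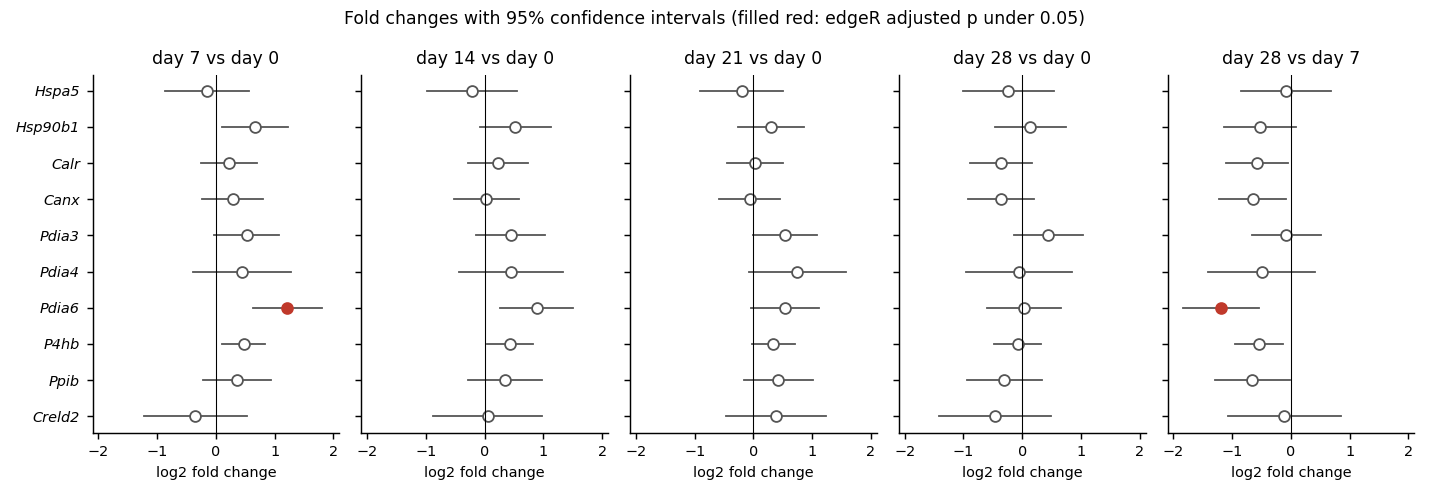
Log2 fold change of each gene (points) with its 95% confidence interval (lines), for each day against day 0 and for day 28 against day 7, with filled red points for an edgeR adjusted p under 0.05. The filled points are Pdia6 on day 7 (1.22) and Pdia6 on day 28 against day 7 (-1.19).

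Between the days after injury, edgeR called Pdia6 alone among the 10 genes. From day 7 to day 14, 0 of the 10 were called by either tool (0 at an unadjusted p under 0.05), beside 1.33% of all genes higher and 0.33% lower. From day 7 to day 21, 0 were called by either tool (1 at an unadjusted p under 0.05), beside 4.03% higher and 3.23% lower. Between days 14 and 21, 0% of all genes were called in either direction by edgeR, and 0 of the 10 by DESeq2 or at an unadjusted p under 0.05. From day 7 to day 28, 1 was lower, Pdia6, beside 8.05% of all genes lower and 6.4% higher, and DESeq2 called 2, Pdia6 and P4hb (DESeq2 adjusted p = 0.0065 for P4hb). All 10 log2 fold changes were below 0 in that comparison, with a median of -0.54, where the median of all genes was -0.07, and 5 had an unadjusted p under 0.05. From day 21 to day 28, 0 were called by either tool (2 at an unadjusted p under 0.05), beside 0.572% lower and 0.107% higher, with a median of -0.40.

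The day 28 values divided by library. The summed level of the 10 genes was 6788 CPM in replicate 1, above every day 7 library, and 3279.5 and 2956 CPM in replicates 2 and 3, below every library of the other days. The median log2 difference of replicate 1 from the mean of the other two was 1.17 over the 10 genes and 0.20 over all genes tested. It was largest for Hspa5 (2.04) and smallest for P4hb (0.17). The cytosolic and mitochondrial chaperones, which work outside the ER, stood at 10708 CPM in replicate 1 and at 2343 and 2549 CPM in the others, with a median difference of 1.94 and 14 of 15 genes highest in replicate 1. Contractile markers stood at 30239.6, 23446 and 21583 CPM and macrophage markers at 908, 889.8 and 1267 CPM in the same libraries. The part of these differences in the chaperone levels was not tested.

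**Figure D4:**
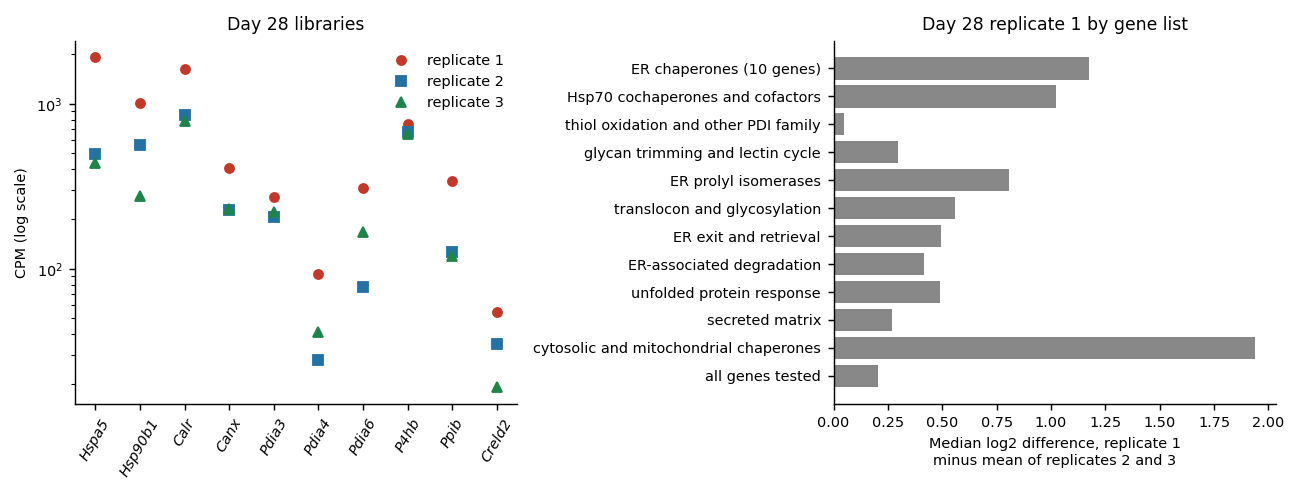
Left, CPM on a log axis of the 10 genes in the day 28 libraries. Right, median log2 difference of day 28 replicate 1 from the mean of replicates 2 and 3 for each gene list, which was 1.17 for the 10 genes, 1.94 for cytosolic and mitochondrial chaperones and 0.20 for all genes tested.

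Without replicate 1 of day 28, 6 of the 10 genes were lower on day 28 than on day 7, beside 10.6% of all genes lower in that fit. They were Hspa5 (-1.11), Hsp90b1 (-1.09), Calr (-0.99), Canx (-0.99), Pdia6 (-1.78) and Ppib (-1.33) on the log2 scale, with adjusted p-values from 0.000767 to 0.0274. Against day 0, 1 was lower, Hspa5, at -1.26 (adjusted p = 0.024), beside 2.9% of all genes. Against day 21, 2 were lower, Pdia6 at -1.10 and Ppib at -1.40, beside 3.34% of all genes. Lower day 28 values in this fit were not confined to ER chaperones. Of 15 cytosolic and mitochondrial chaperones, 7 were lower against day 7 and 5 against day 0, and 0 were higher in either comparison. The median of the 10 in this fit was -0.70 against day 0 and -1.04 against day 7. Day 28 is then 2 libraries, and which of the 3 libraries is typical of that day was not tested. Replicate 1 was left out because these same 10 genes were highest in it, so lower day 28 values follow from that choice. These counts are therefore no independent support for a fall on day 28.

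Markers of the cell types in the tissue differed between days. Macrophage markers summed to 291 ± 175 CPM on day 0 and 6179 ± 1015 on day 7, then 2529 ± 1004, 2884 ± 657 and 1022 ± 213 CPM on days 14, 21 and 28 (SD). Of the 14 markers, 1 (Mpeg1) was at 0 throughout day 0 and 0 on the other days. Contractile markers summed to 38321 ± 2192, 3774 ± 2632, 14040.2 ± 9598, 15188 ± 5938 and 25089.6 ± 4556 CPM over the same days, with 0 of 10 at 0 on any of them. Proliferation genes went from 83.0 ± 26.9 to 539.5 ± 153 CPM from day 0 to day 7. For plasma cells, which hold much ER, the 5 markers summed to 0 to 10.5 CPM on day 0, with Jchain, Igkc, Mzb1 and Tnfrsf17 at 0, to 8.90 to 46.7 CPM on day 7 and to 31.2 to 135 CPM on day 21. Fibroblast markers averaged 3683 CPM on day 0 and 1746 on day 7, endothelial markers 889.6 and 1309, neutrophil markers 51.6 and 497, erythroid markers 214 and 1566, and skeletal muscle markers 2.98 and 35.4. Members of a list moved both ways on day 7: 1 of 9 fibroblast markers was higher and 5 lower, and 3 of 7 endothelial markers were higher and 1 lower. Endothelial sums overlapped between these days (631 to 1148 and 648 to 2187 CPM), as did erythroid and skeletal muscle sums. The part of these shifts in the chaperone values was not tested, and in bulk tissue fewer cells of a type cannot be told apart from less RNA per cell.

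Secreted matrix, a main cargo of the ER in this tissue, rose. Of 16 secreted matrix genes, 12 were higher and 1 lower on day 7. At the later days in turn, 14, 14 and 3 were higher, beside the shares of all genes given above. This list, like the others, was chosen with earlier results of these data known. Its counts beside those shares are therefore a description and not a test. Without replicate 1 of day 28 the last count was again 3, beside 1.78% of all genes higher in that fit. Their summed level went from 30028 ± 3300.4 CPM on day 0 to 41447 ± 16256, 89675 ± 6465 and 108127 ± 15734 CPM on days 7, 14 and 21, and to 30482 ± 5653 CPM on day 28 (SD). Col1a1, the main chain of type I collagen, had log2 fold changes of 1.45, 2.19 and 2.84 on days 7, 14 and 21. The median of the matrix genes was 1.95 on day 21, beside 0.36 for the 10 chaperone genes. The matrix sum had its highest mean on day 21 and the chaperone sum on day 7. Matrix sums of days 14 and 21 overlapped (85816 to 97139 and 89565 to 127932 CPM). Chaperone sums of days 7, 14 and 21 overlapped too (5833 to 6528, 5327 to 6624 and 4340 to 6415 CPM).

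ER prolyl isomerases other than Ppib had 3 of 7 higher and 1 lower on day 7, where 11.3% of all genes were higher and 8.53% lower. Ppic (cyclophilin C) rose on days 7, 14 and 21, with log2 fold changes of 2.25, 2.67 and 2.36. Its level went from 84.0 to 171 CPM on day 0 to 409.5 to 1022 CPM on day 7, with no overlap. Fkbp11 rose by 2.16 and Fkbp10, which acts on collagen and was named after its values were seen, by 1.17, while Fkbp9 fell by 0.70. Among 17 other disulphide enzymes, 2 were higher, Erp29 (1.09) and Txndc5 (0.78), and 1 lower, Tmx4 (-1.42, named after its values were seen). These counts were near the shares of all genes. In the glycan and lectin cycle 3 of 13 were higher, Mcfd2 (0.80), a cargo receptor subunit, Uggt1 (0.80), which tags misfolded glycoproteins for another round with the lectins, and the glucosidase subunit Ganab (0.79, named after its values were seen). The median of that list was 0.68 on day 7.

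Translocon subunits form the channel through which proteins enter the ER. Of 24 translocon and glycosylation genes, 4 were higher and 0 lower on day 7, beside the day 7 shares of all genes given above. They were Sec61b (1.56) and Sec61g (0.88), subunits of the channel, with Tram1 (0.89) and Ssr3 (0.66), which were named after their values were seen. On day 28 against day 7, 7 of the 24 were lower, beside 8.05% of all genes. Without replicate 1 of day 28, 10 were lower, beside 10.6% of all genes. Ssr4, a subunit of the complex beside the channel, was also lower on day 28 than on day 0 (-1.56, and -1.73 without that library). Among 14 ER exit and retrieval genes, 1 was lower on day 7 (Sec24d at -0.97, named after its values were seen), and 3 were lower on day 28 than on day 7, Surf4 (-1.31), Kdelr2 (-1.06) and Sar1a (-0.82). Without that library all 3 were again lower, at -1.74, -1.27 and -1.18 in the same order. That library was the highest of day 28 for 17 of the 24 translocon genes and 8 of the 14 exit genes. Lower values without it therefore follow in part from leaving it out and are no independent support.

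**Figure D5:**
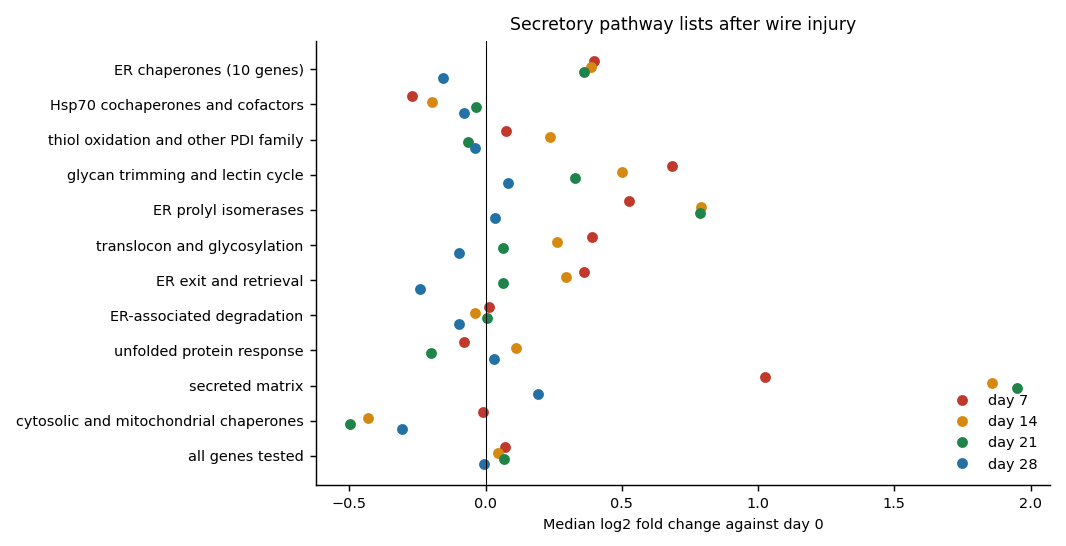
Median log2 fold change against day 0 of each gene list on days 7, 14, 21 and 28 (colours). The 10 chaperone genes stand at 0.40, 0.39, 0.36 and -0.16, the secreted matrix genes reach 1.95 on day 21, and the medians of all genes tested lie between -0.01 and 0.07.

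Of 16 unfolded protein response genes, 1 was higher on day 7, Asns, the asparagine synthetase that Atf4 induces, by at least 5.21-fold, and 1 was lower, Mbtps1, the protease that activates Atf6 (-0.89), where 11.3% of all genes were higher and 8.53% lower. The median was -0.08. Creb3l1, a factor known to drive collagen genes, was higher on day 21 (1.60), at 228, 143, 138 and 209 CPM beside 38.7, 88.5, 41.7 and 66.9 CPM on day 0. Of 14 Hsp70 cochaperones, 0 were called on day 7 by edgeR or DESeq2 (2 at an unadjusted p under 0.05), with a median of -0.27. Of 12 genes of ER-associated degradation, 0 were called on day 7 by either tool (1 at an unadjusted p under 0.05), with a median of 0.01. Of 15 cytosolic and mitochondrial chaperones, 0 were higher and 3 lower on day 7, Hspa1a (-4.34), Hspa1b (-3.10) and Hsph1 (-1.96, named after its values were seen). Hspa1a, the heat-inducible Hsp70, held 83.4, 953, 192 and 344 CPM on day 0 and 5.34 to 35.9 CPM on day 7, and Hspa1a and Hspa1b are near-identical copies whose reads the counting may have split.

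Against day 0 at days 14, 21 and 28, edgeR called 1, 0 and 0 of the other disulphide enzymes, 0, 1 and 0 of the glycan and lectin genes, 2, 1 and 0 of the prolyl isomerases, 1, 0 and 1 of the translocon genes and 1, 1 and 0 of the unfolded protein response genes. It called 0 cochaperones, 0 degradation genes and 0 exit genes on those days. The shares of all genes called on those days are given above. Unadjusted p-values were under 0.05 for 2, 0 and 0 cochaperones, 3, 2 and 0 degradation genes and 2, 1 and 1 exit genes, and DESeq2 called 1 of these, a degradation gene on day 21. In the fit without replicate 1 of day 28, extended to these lists after the data had been seen, the day 28 calls against day 0 were 1 higher and 3 lower among the translocon genes and 1 lower in each of the glycan and lectin, unfolded protein response, degradation and exit lists. In that fit 1.78% of all genes were higher and 2.9% lower. The library was left out for its high chaperone levels, so lower calls in this fit are no independent support.

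Genes with and without an ERSE overlapped in their day 7 values. Of the 6 with the element, Pdia6 was called on day 7 and Hspa5 and Creld2 had log2 fold changes below 0. The 4 without it in their windows ranged from 0.36 (Ppib) to 0.52 (Pdia3). The windows of P4hb and Pdia3 held few or no bases before the GENCODE starts. Of 37 genes with the letters in a window, 13 were tested, and 7 of these were outside the 10. On day 7, 0 of the 7 were called by edgeR or DESeq2 (0 at an unadjusted p under 0.05), with a median of 0.09, and Dnajc3, a cochaperone of Hspa5, stood at -0.59 (adjusted p = 0.175) and was named after its values were seen. On day 28 against day 7, 1 of the 7 was higher, beside 6.4% of all genes: Spats2l (2.06, adjusted p = 0.0424), also named after its values were seen. Its call was lost without replicate 1 of day 28 (2.09, adjusted p = 0.0575).

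Among themselves, the 10 genes were compared by the root mean square difference of their centred log2 CPM over the 18 libraries. These libraries differed in depth, as given above. Hsp90b1 and Calr were closest (0.26) and Pdia6 and Creld2 farthest apart (0.79). Calr lay nearest to the mean of the 10 (0.20) and Creld2 farthest from it (0.52). Creld2 and the next farthest gene, Pdia4 (0.47), also had the lowest counts of the 10. The part of count noise in these distances was not tested. Among 2483 other genes with a mean log2 CPM of at least 6, the ones nearest to that mean were Sumo2 (0.22), Atp5l (0.26), Bsg (0.26), Tsc22d4 (0.26), Nme2 (0.26) and Cd63 (0.26), where the median gene was at 0.58. Sumo2 had means of 269, 351, 344, 295 and 248 CPM from the earliest day to the latest.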

How the data were processed

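MACE-seq libraries of laser-dissected mouse carotid tissue were analysed, 18 in all. The authors dropped PCR copies using molecular identifiers and ran Salmon 1.9.0, on build mm39 per the labels. Estimated counts per gene, in whole numbers, were deposited. The authors also deposited a normalised signal made with DESeq2 1.36.0, which was used in 1 alternative with limma 3.58.1 (log2, pseudocount 1). Of its values at counts of 10 or more, 24.2% departed by over 5% from counts divided by the median factor of their library, by a further factor that the methods do not describe. The annotation release and the use of strand are not given in the sources used here.

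The count model was edgeR 4.0.16 in R 4.3.3: filterByExpr by day, TMM, and 1 quasi-likelihood fit to all 18 libraries. P-values were adjusted by Benjamini-Hochberg for the 10312 genes tested, and calls were made under 0.05. CPM use TMM effective totals. A fold against a group with 3 counts or fewer in each library is a lower bound, set against 3 counts per library. The steps were tested on simulated data. Of 24 same-day pairs none agreed within sampling noise (lowest chi-square per degree of freedom 4.02). In the study only the left vessel was injured and the right one was the control, and that the day 0 libraries are such right vessels is not stated in the sources used here. 3 numbers in the descriptions are shared by a day 0 and a day 21 library. The labels do not say whether such a number marks an animal, and all results above come from an unpaired fit. In the alternative with a block for the shared number, no member was called on day 21 against day 0.

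Named genes are the 10 members, the 3 genes of each other list with the smallest p over all days, and the 6 genes nearest to the members' mean. The rule thus picks list genes by their p in these data, and any other gene named outside it was chosen after its values were seen. The members and lists were chosen with earlier results of these data known. Alternatives were DESeq2 1.42.0, RLE factors, library totals, no filter, only the days compared, blocks, thinning, the normalised signal and each library left out, and the lists without replicate 1 of day 28 were added after seeing the data. Promoters came from RefSeq windows. Positions came from GENCODE on GRCm39. Proteins were not used here.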

Additional observations from a re-analysis of the deposited data

Results flagged for a closer look

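The effect of injury on Pdia6 differed between days 7 and 28. Its log2 fold change against day 0 was 1.22 on day 7 and 0.03 on day 28, and the test of the difference between those days gave -1.19 (edgeR adjusted p = 0.0118). The adjusted p exceeded 0.05 without replicate 2 or replicate 3 of day 28. No single library stood out by its gap to the others in the 30 groups of 4 libraries that were tested, of which chance flags about 1 in 20. The groups of 3 libraries, day 28 among them, were not tested in this way.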

How the results depend on the processing

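On day 7 against day 0, 2 of the 10 genes were called with DESeq2, RLE factors, library totals, only the days compared or the deposited normalised values, in place of 1. On day 14, 1 was called with DESeq2, without the filter or with only the days compared, in place of 0. On day 28 against day 7, 2 were called with DESeq2 or the deposited normalised values and 0 with only the days compared, in place of 1. Over all 5 days 2 were called with DESeq2, in place of 1. Leaving out 1 library at a time gave 1 to 2 calls on day 7, 0 to 1 on day 14, 0 to 1 on day 28, 0 to 6 for day 28 against day 7, 0 to 2 for day 28 against day 21 and 1 to 4 over all days, and each upper limit from day 28 on came without replicate 1 of day 28. The replicate block changed no count, with 1 call on day 7, 0 on days 14, 21 and 28 against day 0, and 1 on day 28 against day 7. Libraries with the same replicate number share only a number, since their residuals had a median correlation of -0.01 over 33 pairs, with 1 pair over 0.1. No fold change that was called reversed under an alternative. Counts of 8 to 66 for Creld2 and of 17 to 121 for Pdia4 limit what can be seen for those genes, so small changes were not detectable at this depth.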
